A study of Homo sapiens with 6 samples.

Results

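Pigmentation and melanocyte lineage genes were followed in melanoma cells depleted of pirin. The 32 genes comprise the transcription regulators of the melanocyte lineage, the enzymes that make melanin, and the proteins that build, load and move the melanosome, with receptors and survival genes of the lineage. Each gene was represented by the brightest probe set annotated with its symbol alone, among 19775 genes so represented on the array. Of the 32 genes, 30 had such a probe set, and DCT and SLC24A5 were not analysed here. In all, 29 were measured, meaning that the mean signal of at least 1 RNA pool exceeded 70.2, the median of all values on the arrays. KIT, a receptor tyrosine kinase of melanoblasts, was the only one of the 30 below that level, with signals of 32.7 and 4.9 in siPIR, 32.7 and 4.7 in siCTR, and 5.4 and 5.8 in NO.

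The cells were WM-266.4, 1 line from a metastatic human melanoma, and all groups went through transfection with Oligofectamine 24 h after seeding and were harvested 72 h later. The siPIR group received 200 pmol of a pool of 4 siRNA duplexes against PIR, the gene of pirin, an iron-binding nuclear protein. The siCTR group received a pool of 4 non-targeting duplexes, which the labels give as another product line than the PIR duplexes, and the NO group received the reagent without oligonucleotides. RNA of 3 extractions was mixed in each group, and the labelled product went onto 2 HG-U133 Plus 2 arrays from Affymetrix. A group thus stands for 1 RNA pool, the arrays of a pool measure hybridisation error only, and no difference between pools has a biological replicate. In bulk RNA of this kind, fewer cells that express a gene and less RNA per cell cannot be told apart.

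MITF, the helix-loop-helix factor at the centre of the melanocyte programme, is induced by SOX10 and PAX3 and activates the genes of melanin synthesis and of the melanosome. Melanin is made in melanosomes, organelles related to lysosomes, where tyrosinase oxidises tyrosine on a fibrillar scaffold while ion transporters set the pH. Mature melanosomes are then carried along actin by a complex of a Rab protein, melanophilin and myosin Va. Many melanomas keep this programme, and its level differs between the states that melanoma cells take up.

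PIR had signals of 392 and 382 in siPIR, 13544 and 13180 in siCTR, and 13990 and 14153 in NO, so the siPIR pool matched its label. Array medians lay between 64.2 and 74.8. Among the 8272 genes whose highest pool mean exceeded 458.4 (the 75th percentile of all values; called bright here), duplicate arrays correlated across genes at 0.992 to 0.994. As a gauge of RNA quality, the ratio of 3' to 5' ACTB signal was 1.13 in siPIR (both arrays), 1.23 to 1.26 in siCTR and 1.23 to 1.27 in NO. The melanocyte markers MITF, SOX10, MLANA, PMEL, TYR and TYRP1 were bright in the line. Of other cell types, 3 of 8 fibroblast, 1 of 7 keratinocyte, 3 of 7 leukocyte and 2 of 8 endothelial markers with a probe set were measured, and of these COL1A2 and KRT10 were bright. The summed signal of the measured markers of a list was 23355, 15149 and 12543 for fibroblasts in siPIR, siCTR and NO, nearly all of it COL1A2. In the same pools it was 2594, 3366 and 3237 for keratinocytes, 371, 230 and 283 for leukocytes, and 412, 332 and 565 for endothelial cells. In the leukocyte list CD14 was called higher (1.64) and ITGAM lower (-1.33) in siPIR than in NO, and CD2 lower in siCTR than in NO (-1.64). All 3 are dim, ITGAM and CD2 with pools below the measured level, and PTPRC was not measured.

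The promoters of the melanin enzymes are shown first, beside those of TRPM1 and OCA2, which gave the largest differences from NO among the measured genes. MITF binds the hexamer CATGTG, which was searched on both strands (CACATG on the other) in RefSeq promoter windows of GRCh38.p14, each running from 250 bases before to 50 bases after a transcript start. TYR lies on the forward strand at chr11:89177625-89177924 and TYRP1 on the forward strand at chr9:12693135-12693434. TRPM1 has 2 starts on the reverse strand, at chr15:31161111-31161410 and chr15:31101676-31101975, and OCA2 lies on the reverse strand at chr15:28099266-28099565. The sequences are written 5' to 3' on the gene's strand, and capitals mark the hexamer in either orientation.
TYR: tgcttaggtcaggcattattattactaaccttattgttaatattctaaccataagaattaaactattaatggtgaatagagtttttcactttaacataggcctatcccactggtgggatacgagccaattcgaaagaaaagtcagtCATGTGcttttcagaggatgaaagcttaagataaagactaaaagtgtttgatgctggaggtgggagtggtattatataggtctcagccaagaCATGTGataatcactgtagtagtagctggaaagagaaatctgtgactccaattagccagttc
TYRP1: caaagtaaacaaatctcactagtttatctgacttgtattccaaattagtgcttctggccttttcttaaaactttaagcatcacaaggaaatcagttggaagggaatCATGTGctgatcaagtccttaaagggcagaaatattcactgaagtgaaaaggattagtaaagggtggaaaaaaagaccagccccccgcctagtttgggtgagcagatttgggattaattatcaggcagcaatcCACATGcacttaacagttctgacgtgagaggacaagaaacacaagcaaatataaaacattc
TRPM1 start 1: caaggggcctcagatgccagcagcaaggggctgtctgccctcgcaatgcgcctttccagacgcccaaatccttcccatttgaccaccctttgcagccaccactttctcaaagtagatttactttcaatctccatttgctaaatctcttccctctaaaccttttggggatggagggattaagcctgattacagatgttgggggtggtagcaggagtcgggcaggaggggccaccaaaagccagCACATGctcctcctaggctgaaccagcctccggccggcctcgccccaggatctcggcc
TRPM1 start 2: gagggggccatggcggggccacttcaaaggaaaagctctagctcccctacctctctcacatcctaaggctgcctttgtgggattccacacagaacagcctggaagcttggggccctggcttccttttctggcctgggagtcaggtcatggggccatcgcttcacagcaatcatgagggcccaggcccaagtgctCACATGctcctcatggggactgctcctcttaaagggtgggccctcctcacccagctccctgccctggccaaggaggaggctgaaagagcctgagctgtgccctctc
OCA2: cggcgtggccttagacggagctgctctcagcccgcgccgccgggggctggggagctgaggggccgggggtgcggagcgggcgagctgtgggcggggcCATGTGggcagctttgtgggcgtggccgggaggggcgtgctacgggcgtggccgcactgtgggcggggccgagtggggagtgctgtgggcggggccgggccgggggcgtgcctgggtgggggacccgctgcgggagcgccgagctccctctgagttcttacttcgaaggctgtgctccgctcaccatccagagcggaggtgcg

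The promoter table held 24 of the 32 genes, and 12 of them (50%) had the hexamer in at least 1 window, beside 13.4% of the 27305 genes in the table. TYR carried it 104 and 12 bases before its start, TYRP1 144 and 11 bases before, and TRPM1 at 8 bases before its first start and 56 bases before its second. By role, the hexamer was found in all 3 melanin enzymes, in 3 of 4 receptors and channels, in 1 of 6 lineage transcription regulators (CITED1) and in 0 of 4 genes of melanosome vesicle transport. A match describes these windows only and shows no binding. Measured genes with the hexamer (n = 10) ranged from -0.77 to 0.40 in the log2 difference of siPIR from siCTR, with a median of 0.12. Those without it (n = 11) ranged from -0.11 to 0.77, with a median of 0.04. Positive differences from siCTR were found in 7 genes with the hexamer and in 7 without it. Against NO the order of the medians was the other way, at 0.14 with the hexamer and 0.16 without it. SOX10, SOX9, TBX2, PMEL, SLC45A2, RAB38, ERBB3 and ABCB5 were not in the promoter table and are in neither group.

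**Figure D1:**
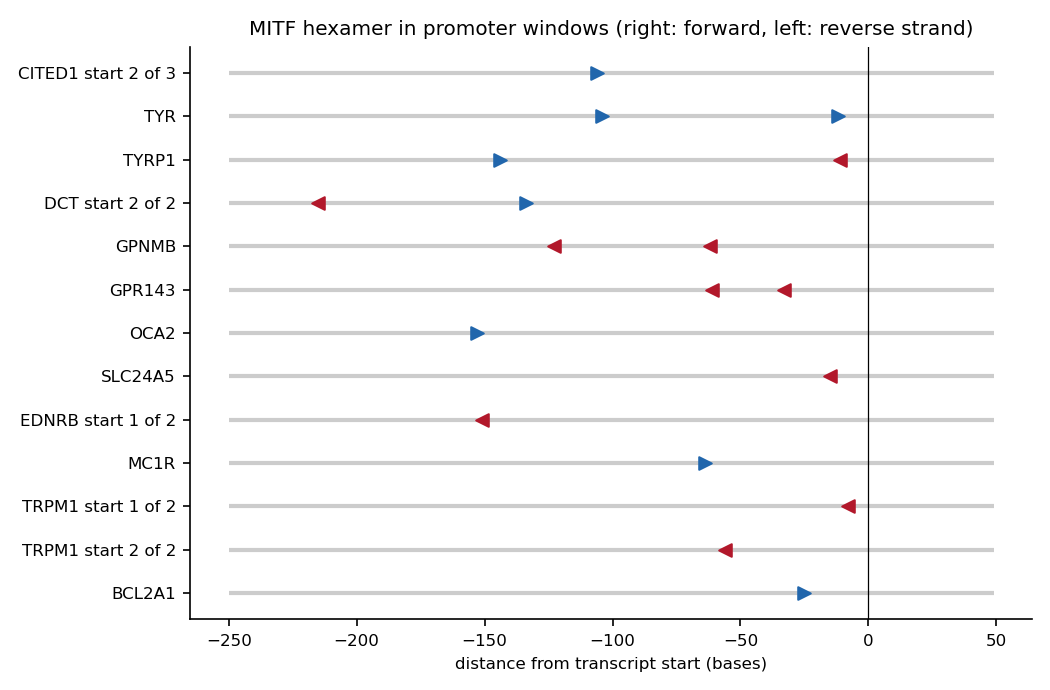
Positions of the MITF hexamer in the 13 promoter windows of pigmentation and lineage genes that hold it. The x axis is the distance in bases from the transcript start, triangles pointing right are forward and triangles pointing left reverse matches, and TYR, TYRP1, GPNMB, GPR143 and the second start of DCT have 2 matches each.

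On their brightest probe sets, the measured pigmentation and lineage genes stayed within 2-fold between the siPIR and siCTR pools. All differences are between mean log2 signals of the pools, with 5.4 added to each signal, and brackets hold the range over the 4 array pairs. Calling a gene took a difference of 1 or more in either direction (2-fold), with no overlap between the arrays of the pools compared. Against siCTR, 0 of the 29 measured genes were called, where 8.01% of 13071 measured genes were. Against NO, 2 of 29 met the rule (6.90%), both lower, where 9.15% of measured genes were called in either direction and 5.48% lower. One of them, OCA2, counts as measured through the NO pool alone. Among bright genes, 1 of 28 members (TRPM1, 3.57%) was called against NO, where 6.44% of bright genes were called in either direction and 4.29% lower. Against both controls 0 of 29 were called, where 4.74% of measured genes were. The share of the 29 genes called was thus below or near that of all genes in each comparison.

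The differences of most members were small rather than 0. Among the 28 bright members, 25 (89.3%) differed from siCTR by less than 0.5 on the log2 scale, beside 77.0% of all bright genes, and 23 (82.1%) did so against NO, beside 71.7%. In 21 of the 29 measured genes both siPIR arrays lay above or both below all 4 control arrays, where 51.6% of measured and 63.1% of bright genes did so. Of these 14 were higher, where 28.4% of measured genes were, and 7 were lower, where 23.2% were. These 2 shares are of measured genes, while all but 1 of the members are bright, and bright genes were apart more often. MLANA, GPNMB, RAB27A and EDNRB, counted as higher, and MYO5A, counted as lower, have another measured probe set of the opposite sign in both comparisons. LEF1, counted as lower, has a dim probe set at 0.11 against siCTR, with overlapping arrays. SOX5, counted as higher, has another probe set at -0.02 against NO, also with overlapping arrays. The median log2 difference of the 29 genes was 0.04 against siCTR and 0.13 against NO, and that of all measured genes was 0.05 and 0.03. The siPIR pool is shared by both comparisons, so they are not independent.

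**Figure D2:**
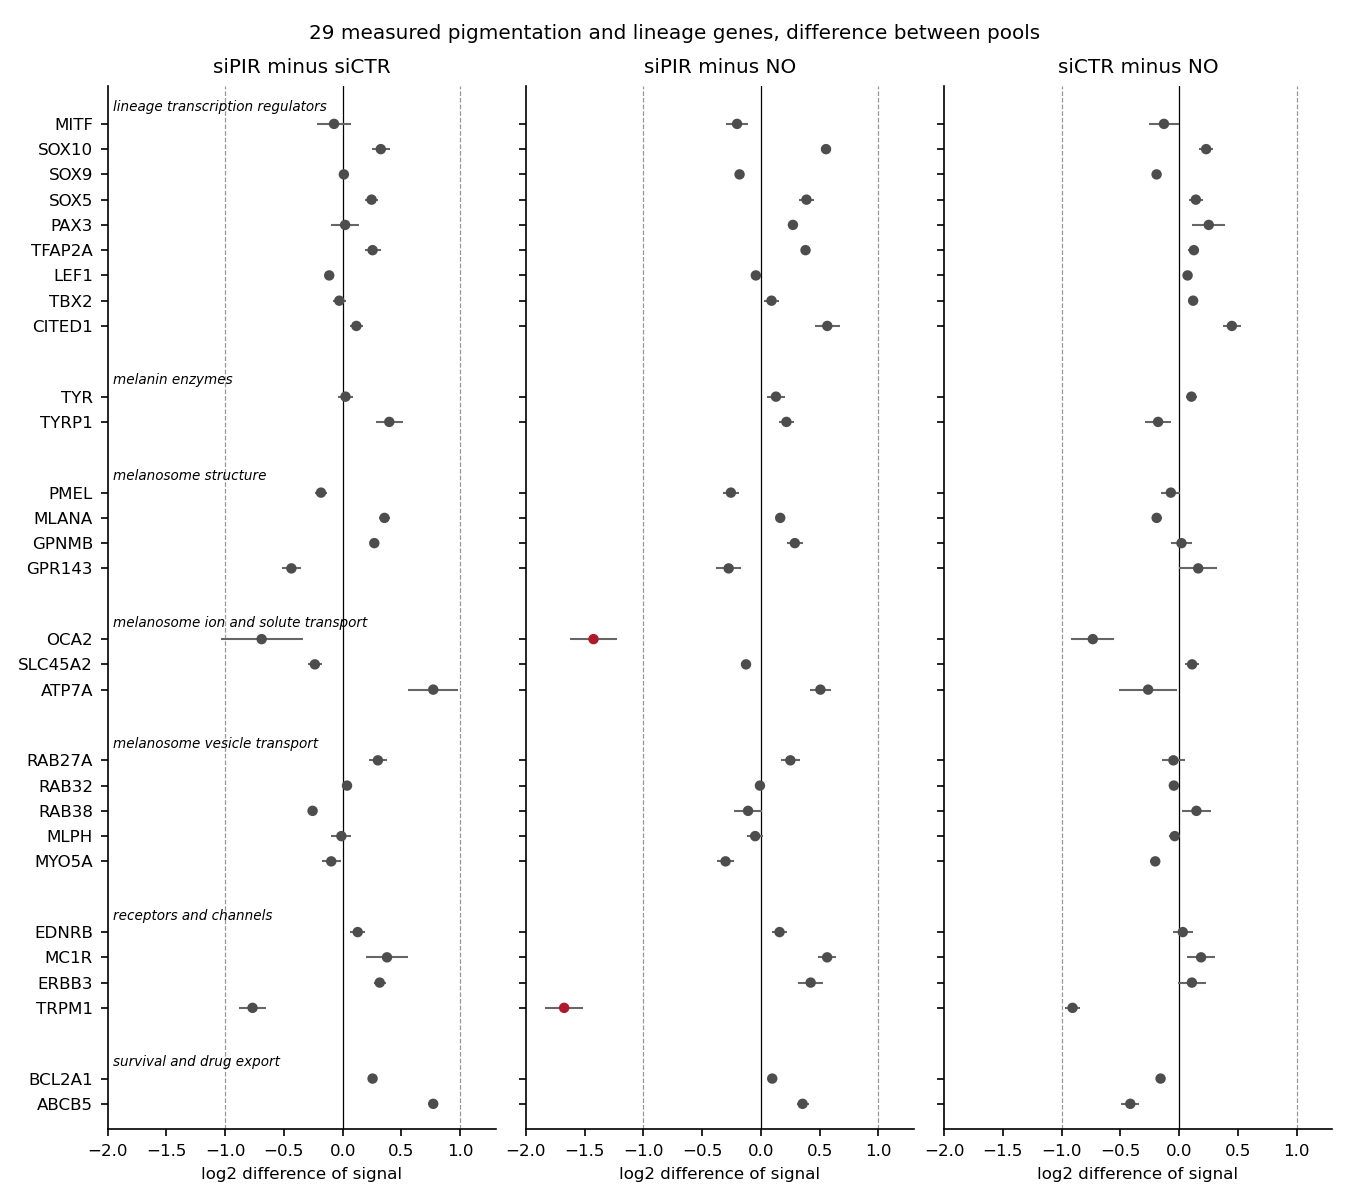
Log2 difference of signal for each of the 29 measured genes, ordered by role, for siPIR minus siCTR, siPIR minus NO and siCTR minus NO. Points are differences of pool means, lines their range over the 4 pairs of arrays, dashed lines mark 2-fold and red points were called. TRPM1 and OCA2 are the only red points, both for siPIR minus NO.

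Among the lineage transcription regulators none of the 9 measured was called, with a median of 0.02 against siCTR and 0.27 against NO. MITF had signals of 14887 and 13796 in siPIR, 14153 and 16071 in siCTR, and 16089 and 16919 in NO. Its siPIR arrays overlapped those of siCTR and lay below those of NO, with log2 differences of -0.07 (-0.22 to 0.07) and -0.20 (-0.29 to -0.11). The other bright MITF probe set gave 0.00 and -0.20, and the third, which is dim, -0.19 and -0.35.

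SOX10, the neural crest factor that drives MITF, was measured at 8682 and 8935 in siPIR, 6760 and 7322 in siCTR, and 5982 and 6018 in NO. Its siPIR arrays were the highest and its NO arrays the lowest, without overlap, with differences of 0.32 (0.25 to 0.40) from siCTR and 0.55 (0.53 to 0.58) from NO. Its second probe set gave 0.55 and 0.65. TFAP2A, a neural crest factor that acts beside MITF, had signals of 3936 and 3801 in siPIR, 3340 and 3148 in siCTR, and 2980 and 2965 in NO. The differences of its brightest probe set were 0.25 and 0.38, while those of the second were 0.92 and 0.79. The third TFAP2A probe set is dim and was below the measured level in siCTR (13.8 and 66.5) and in NO (14.4 and 10.9), beside 76.3 and 85.2 in siPIR. Its differences of 1.21 from siCTR and 2.26 from NO met the size and array rule. It passed the filter only through siPIR, the pool where it is high, so these sizes are not settled.

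CITED1, a transcriptional co-activator of the lineage, had signals of 2366 and 2239 in siPIR, 2104 and 2143 in siCTR, and 1486 and 1627 in NO. It was close between the siRNA pools (0.12) and higher in both than in NO (0.56 for siPIR, 0.45 for siCTR). SOX5, which modulates SOX10, differed by 0.25 and 0.39, although its second probe set gave -0.02 against NO. PAX3, a factor upstream of MITF, differed by 0.02 and 0.27 (0.45 and 0.70 on its second probe set), the neural crest factor SOX9 by 0.01 and -0.18, the Wnt effector LEF1 by -0.11 and -0.04, and the anti-senescence factor TBX2 by -0.03 and 0.09.

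The melanin enzymes that were measured were TYR and TYRP1, and neither was called. TYR encodes tyrosinase, the rate-limiting enzyme, and had signals of 40133 and 37848 in siPIR, 37842 and 38838 in siCTR, and 34921 and 36434 in NO. The siPIR and siCTR arrays overlapped, at a difference of 0.02 (-0.04 to 0.08), and siPIR was 0.13 above NO. That sign is not settled, since the difference from NO was -0.03 after quantile normalization and -0.11 as the mean over probe sets. TYRP1 encodes a melanosomal enzyme that stabilises tyrosinase, and had signals of 8814 and 8390 in siPIR, 6176 and 6911 in siCTR, and 7254 and 7546 in NO. Both siPIR arrays exceeded all control arrays, by 0.40 (0.28 to 0.51) against siCTR and 0.22 (0.15 to 0.28) against NO.

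The 4 genes of melanosome structure pointed both ways. PMEL, which forms the fibrils on which melanin is laid down, had signals of 6389 and 6559 in siPIR, 7209 and 7510 in siCTR, and 7461 and 8008 in NO. It was lower in siPIR by all array pairs, with differences of -0.18 and -0.26. GPR143, the ocular albinism receptor of the melanosome membrane, had signals of 1268 and 1245 in siPIR, 1788 and 1621 in siCTR, and 1426 and 1623 in NO. Its siPIR arrays lay below all control arrays, with differences of -0.44 (-0.52 to -0.35) and -0.27 (-0.38 to -0.17).

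MLANA, the antigen MART-1 that binds PMEL, had signals of 7432 and 7531 in siPIR, 6005 and 5692 in siCTR, and 6657 and 6696 in NO. This probe set was 0.36 above siCTR and 0.16 above NO, whereas the second MLANA probe set differed by -0.34 from siCTR and -0.62 from NO, so the direction for MLANA is not settled. GPNMB, a PMEL-related glycoprotein, likewise differed by 0.27 and 0.29 on its brightest probe set and by -0.22 and -0.40 on the second.

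**Figure D3:**
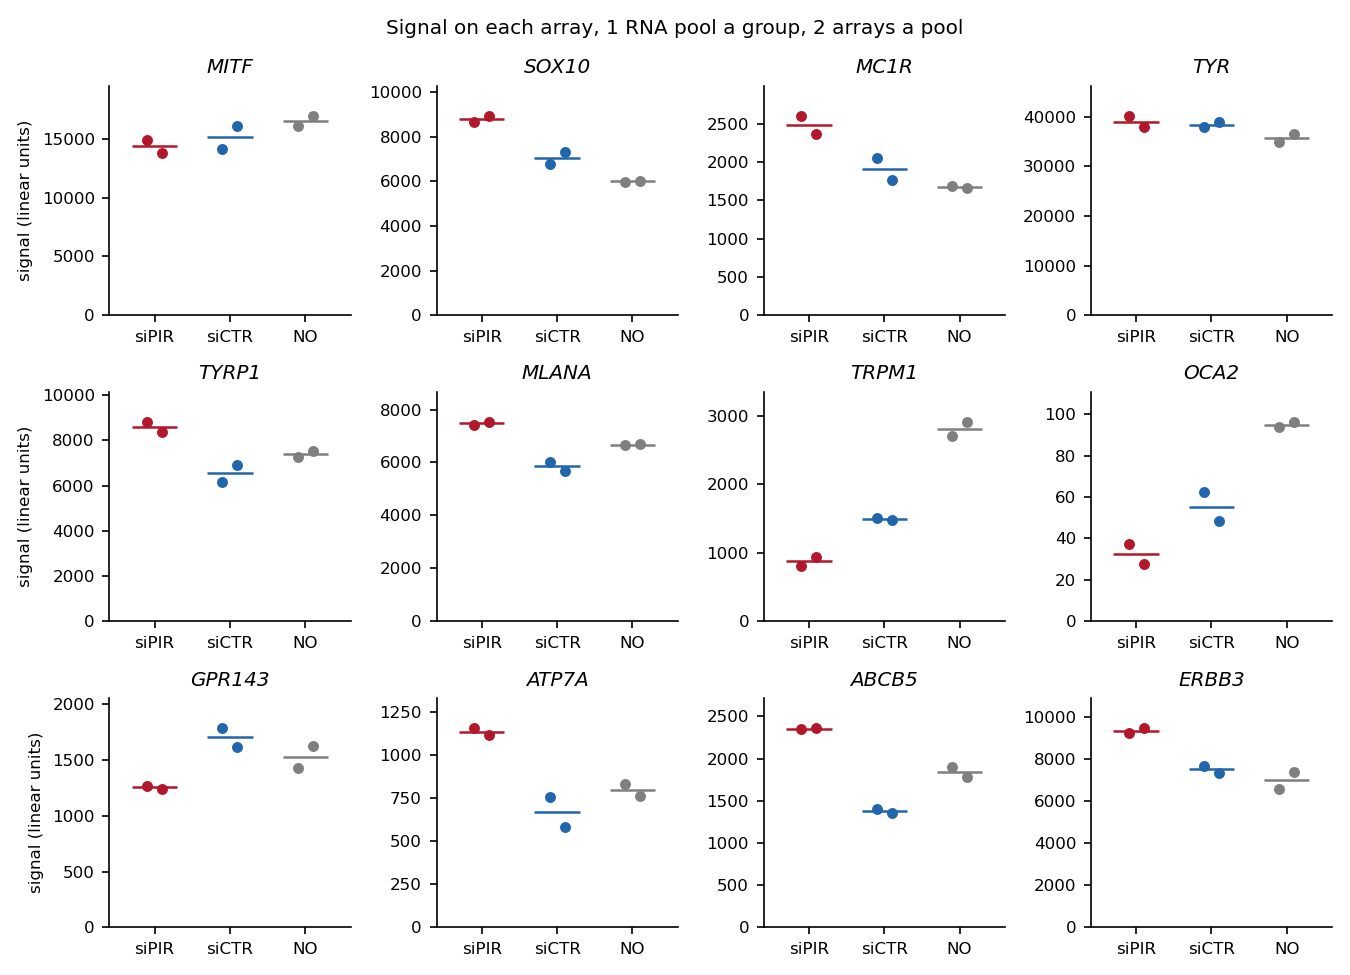
Signal on each array for 12 of the genes, in linear units from 0, with siPIR in red, siCTR in blue and NO in grey. Points are single arrays and bars the mean of the 2 arrays of a pool. TRPM1 and OCA2 are lowest in siPIR and highest in NO, SOX10 and MC1R run the other way, and MITF and TYR differ little between siPIR and siCTR.

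Of the genes for melanosome ion and solute transport, OCA2 was the only one that met the call rule, and it is a dim gene. It encodes a chloride-conducting protein that raises melanosomal pH, and had signals of 37.1 and 27.5 in siPIR, 62.2 and 48.4 in siCTR, and 93.7 and 96.2 in NO. The pools did not overlap, with siPIR lowest and NO highest. The differences of siPIR were -1.42 (-1.63 to -1.22) from NO and -0.69 (-1.04 to -0.34) from siCTR. All siPIR and siCTR signals lay below the measured level of 70.2, so OCA2 passed the filter only through NO, the pool where it is high, and the size of its difference is not settled. OCA2 has 1 probe set.

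ATP7A, the copper pump that loads tyrosinase, had signals of 1159 and 1116 in siPIR, 756 and 584 in siCTR, and 835 and 766 in NO. Both siPIR arrays were above all control arrays, with differences of 0.77 (0.56 to 0.98) and 0.51 (0.42 to 0.59). The second ATP7A probe set gave 0.58 and 0.24. SLC45A2, a melanosomal transporter that is needed for normal pH, was lower by all array pairs, with differences of -0.24 and -0.13 (-0.04 and -0.03 on its second probe set).

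Genes of melanosome vesicle transport showed small differences, with a median of -0.01 against siCTR and -0.05 against NO over 5 genes and 0 called. RAB27A, which tethers melanosomes to the carrier complex, differed by 0.30 and 0.25, and its 5 measured probe sets ran from -0.26 to 0.39 against siCTR and from -0.50 to 0.34 against NO. MLPH, melanophilin, the link between RAB27A and the motor, had signals of 4261 and 3968 in siPIR, 4048 and 4243 in siCTR, and 4298 and 4211 in NO, with overlapping arrays in each comparison. MYO5A, the myosin Va motor, differed by -0.10 and -0.30 on the brightest probe set but by up to 0.71 and 0.52 on others. RAB32 and RAB38, which deliver enzymes to the maturing melanosome, differed from siCTR by 0.04 and -0.26 and from NO by -0.01 and -0.11.

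The receptors and channels held the gene with the largest difference from NO among the measured members. TRPM1, a cation channel gene of melanocytes and a known MITF target, had signals of 813 and 943 in siPIR, 1506 and 1481 in siCTR, and 2704 and 2911 in NO. The pools were separate, siPIR lowest and NO highest. TRPM1 was 3.19-fold lower in siPIR than in NO (log2 -1.67, -1.83 to -1.51), which was called, and 1.70-fold lower than in siCTR (-0.77, -0.89 to -0.65), which was not.

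TRPM1 was the only member with 3 measured probe sets that all gave differences below -0.2 in both comparisons. The second had signals of 730 and 581 in siPIR, 730 and 839 in siCTR, and 1233 and 1156 in NO, and differed by -0.26 and -0.87. The third had 129 and 116 in siPIR, 161 and 354 in siCTR, and 435 and 346 in NO, and differed by -0.94 and -1.62. The siCTR pool was itself 1.88-fold lower than NO on the brightest probe set (log2 -0.91, -0.97 to -0.84).

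MC1R, the receptor for melanocyte-stimulating hormone, had signals of 2601 and 2360 in siPIR, 2058 and 1766 in siCTR, and 1683 and 1667 in NO. Both siPIR arrays were above all control arrays, with differences of 0.38 (0.20 to 0.56) and 0.56 (0.49 to 0.64). ERBB3, the neuregulin receptor of the lineage, had signals of 9237 and 9488 in siPIR, 7698 and 7357 in siCTR, and 6573 and 7415 in NO. Its differences were 0.31 and 0.42, and all 4 measured ERBB3 probe sets were positive, at 0.17 to 0.77 against siCTR and 0.29 to 1.04 against NO. EDNRB, the endothelin receptor B of melanoblasts, differed by 0.13 and 0.16, while 1 of its 3 probe sets gave -0.28 and -0.38.

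Both remaining genes were higher in siPIR without being called. ABCB5, a drug exporter of pigment cells, had signals of 2349 and 2364 in siPIR, 1409 and 1351 in siCTR, and 1902 and 1784 in NO. It differed from siCTR by 0.77 (0.74 to 0.80) and from NO by 0.35 (0.30 to 0.41), and its 3 measured probe sets ran from 0.54 to 0.77 and from 0.35 to 0.53. BCL2A1, an anti-apoptotic MITF target, had signals of 13144 and 13015 in siPIR, 10823 and 11112 in siCTR, and 12422 and 12055 in NO, with differences of 0.25 and 0.10.

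Probe sets of the same gene often disagreed at this scale. Of 20 members with 2 or more measured probe sets, 10 had the same sign on each of them against siCTR and 13 against NO. SOX10, PAX3, TFAP2A, ATP7A, ERBB3 and ABCB5 were positive, and TRPM1 and SLC45A2 negative, on each measured probe set in both comparisons. MLANA, GPNMB, RAB27A, MYO5A and EDNRB had both signs in both comparisons, so small differences of these genes have no settled direction.

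**Figure D4:**
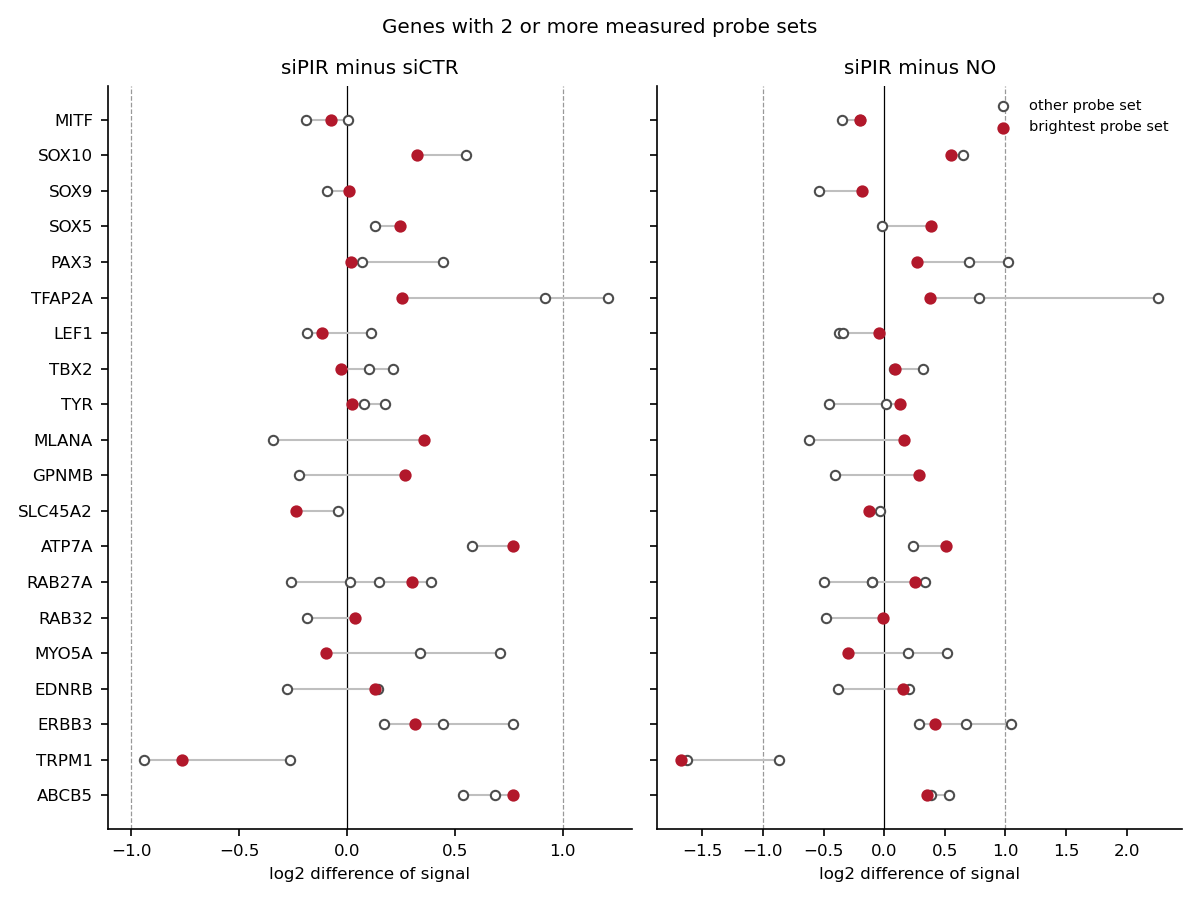
Log2 difference of signal for every measured probe set of the 20 genes with 2 or more, for siPIR minus siCTR and siPIR minus NO. Red points are the brightest probe set of each gene, open points the others, and dashed lines mark 2-fold. The 3 TRPM1 probe sets lie left of 0 in both panels, and the MLANA, GPNMB and MYO5A probe sets fall on both sides of 0.

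A fit across pools was run with limma, setting siPIR against siCTR and NO together, with 1 residual degree of freedom. In this fit none of the 13071 measured genes passed an adjusted p of 0.05, and so none of the 29 members did. The lowest adjusted p of a member was 0.229, for ATP7A. Since PIR did not pass either, this fit says nothing about stability. With the prior variance allowed to depend on signal, a choice made after the data were seen, limma passed 7 of 29 members (24.1%), where 21.0% of all genes passed. Its prior counted for 105 degrees of freedom beside 1 residual degree, so the variances come almost wholly from other genes. TRPM1 was the lower one (log2 -1.22), while its siCTR and NO pools themselves differed by -0.91. On the brightest probe sets, SOX10, GPNMB, ATP7A, MC1R, ERBB3 and ABCB5 were higher, by 0.28 to 0.64. The second GPNMB probe set had the opposite sign, so its direction is not settled. This limma fit takes the 2 control pools as replicates of each other and holds no spread between siPIR pools.

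The siCTR and NO pools differ by label in the non-targeting siRNA, and a difference between them has no replicate either. None of the 29 members was called, where 3.51% of measured genes were. In either direction 22 (75.9%) had arrays apart, where 53.0% of measured genes had. Nearly all members are bright, and the share of bright genes with arrays apart is not given here. The median difference of the 29 members was 0.02. TRPM1 (-0.91) and OCA2 (-0.73, -0.92 to -0.55) had the largest sizes here too, followed by CITED1 (0.45), ABCB5 (-0.42) and ATP7A (-0.26). OCA2 counts as measured through the NO pool alone.

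For several members the siCTR pool therefore lay between siPIR and NO. TRPM1, OCA2 and MYO5A were lowest in siPIR and highest in NO with the arrays of neighbouring pools apart (3 of 29, 10.3%), where 7.38% of measured and 9.65% of bright genes had this order. For MYO5A it held on the brightest of 3 measured probe sets, and siPIR was the highest pool on the other ones. OCA2 counts as measured through the NO pool alone, so its place highest in NO came with the filter and adds no support to this count. SOX10, SOX5, TFAP2A, CITED1 and MC1R had the opposite order (5 of 29, 17.2%), where 10.6% of measured and 14.9% of bright genes did. It did not hold on the second probe sets of SOX10, SOX5 and TFAP2A. There, siCTR and NO arrays overlapped for SOX10 and SOX5, and siCTR lay below NO for TFAP2A. CITED1 and MC1R have 1 probe set each. The summed fibroblast markers, through COL1A2, were also highest in siPIR and lowest in NO, and their part in these results was not tested. For TYRP1, MLANA, ATP7A, RAB32, BCL2A1 and ABCB5, siCTR was instead the lowest pool on the brightest probe set, so their differences from siCTR were larger than those from NO. On the second probe sets of MLANA and RAB32, siPIR was the lowest pool.

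TRPM1, OCA2 and MYO5A, grouped here by their pool order, lie on chromosome 15, as do 6 of the 32 genes in all. Of the other measured members there, BCL2A1 differed by 0.25 from siCTR and 0.10 from NO, and RAB27A had both signs among its probe sets. MYO5A had the order on its brightest probe set alone, and OCA2 counts as measured through NO alone. A shared change of genes on this chromosome was not tested.

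**Figure D5:**
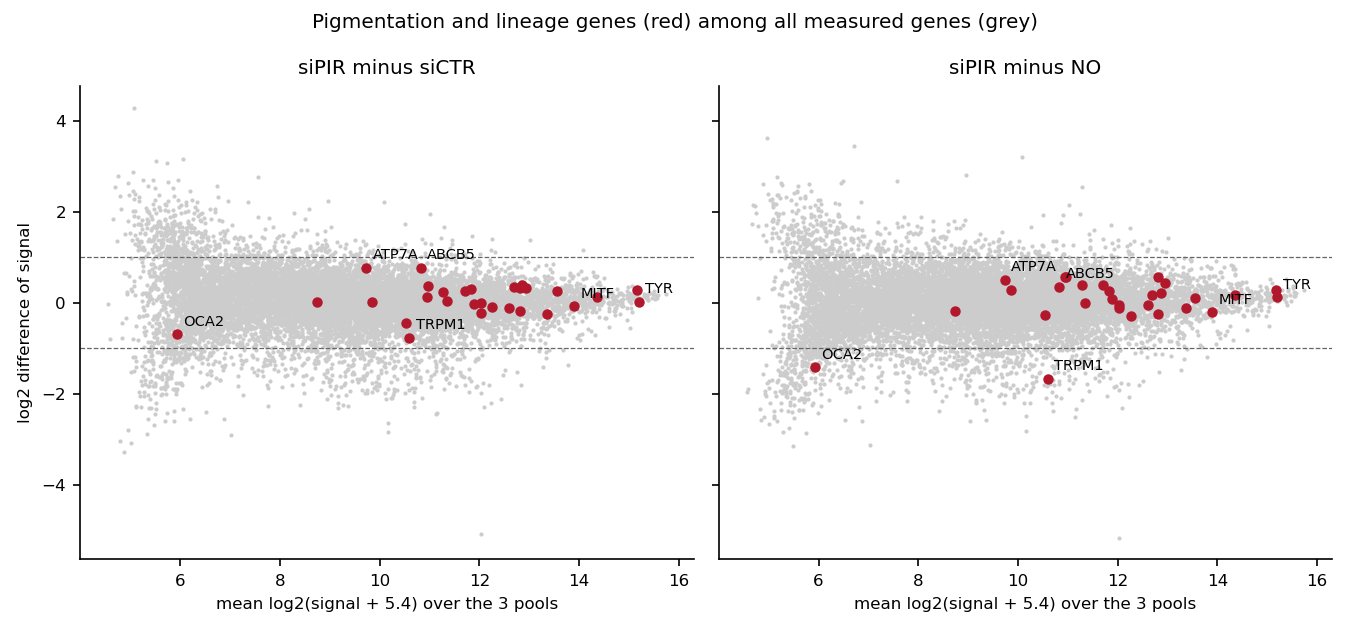
Log2 difference of signal against mean log2(signal + 5.4) over the 3 pools, for siPIR minus siCTR and siPIR minus NO. Grey points are all 13071 measured genes, red points the 29 measured members, and dashed lines mark 2-fold. The members lie within 2-fold except TRPM1 and OCA2 in the panel against NO.

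Other genes of the pathway, from lists apart from the 32, were called at about the share of all genes or not at all. Of 13 measured relatives of MITF, ligands and cAMP inputs, TFEB, a lysosomal relative of MITF, was the only one called lower than siCTR (-1.07, -1.98 to -0.15), where 8.01% of measured genes were called in either direction, and it was not called against NO (-0.73). Its signals were 30.6 and 92.0 in siPIR, 137 and 103 in siCTR, and 99.2 and 87.4 in NO, so 1 siPIR array carries much of that difference. TFEB is dim, and its mean in siPIR lay below the measured level. Of 24 measured other melanosome and pigment genes, 0 were called in any of the 3 comparisons, with medians of 0.13 against siCTR and 0.20 against NO.

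Of 13 measured genes of the dedifferentiated melanoma state, which runs opposite to MITF activity in melanoma, 1, AXL, was called lower than siCTR, again beside 8.01% of measured genes in either direction. This receptor tyrosine kinase had signals of 885 and 792 in siPIR, 2032 and 2085 in siCTR, and 1476 and 1207 in NO. AXL differed by -1.29 (-1.39 to -1.19) against siCTR and by -0.67 against NO, since siCTR was 0.62 above NO. The other 12 were not called and pointed both ways. Above siCTR were NGFR (0.85), JUN (0.83), FOSL1 (0.72), EGFR (0.57), CCN1 (0.38), POU3F2 (0.29), CCN2 (0.21) and TNC (0.15). Below it were WNT5A (-0.62), TGFBI (-0.48), ZEB1 (-0.39) and THBS1 (-0.30). NGFR, EGFR, CCN1 and WNT5A are dim. Over the list, the medians were 0.21 against siCTR and 0.01 against NO.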

How the data were processed

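Probe set intensity on a linear scale was deposited by the authors for 6 arrays, made with GCOS per the submitters' processing notes; version and settings were not given in the sources used here. Trimmed by 2% at each end, the mean was 500.07 on each array, so total signal is equalised and a change of total RNA would not be seen. All 6 columns were matched to samples and 0 were left over.

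Arrays of a pool were averaged as log2(signal + 5.4), where 5.4 is the 10th percentile of the data, a scale on which dim genes differ too little. The platform annotation gave 1 gene to 41097 of the 54675 probe sets and several to 1801, and it lacked 11777. Symbols were checked through Entrez identifiers in RefSeq, where 99.9% matched and 0 changed. Genes carrying probe sets ending in _x_at or _s_at can share signal with other transcripts. The fit used limma 3.58.1 in R 4.3.3 with Benjamini-Hochberg adjustment over all measured genes. Call rule and fit were also run on simulated data with the noise of duplicate arrays. Beyond the changes put in for siPIR, no variation between pools was simulated, so that run cannot show how either handles such variation. Precision is limited by the number of pools and arrays.

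The members, roles, lists and tests were chosen with earlier results of these data known. All 32 members are accounted for, and of the other lists and cell type markers the measured genes called against a control are named. Markers below the measured level are not named for their calls. Alternatives were other pseudocounts, probe set rules, filters, quantile normalization and each array left out.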

Additional observations from a re-analysis of the deposited data

How the results depend on the processing

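Over 13 other settings, 1107 differences of members were recomputed. No call was lost among members still measured, 0 called differences changed sign, and 1 call was gained, TFAP2A higher than NO (1.14) as the mean over probe sets. That call rests on a dim probe set with signals of 14.4 and 10.9 in NO, and the other TFAP2A probe sets gave 0.38 and 0.79. Signs of uncalled members differed 46 times, 18 of them as the mean over probe sets and 7 without _x_at and _s_at probe sets. TRPM1 ranged from -1.78 to -1.20 against NO and from -0.87 to -0.62 against siCTR, and OCA2 from -1.61 to -1.12 against NO. With only bright genes kept, members called against NO numbered 1, since OCA2 was not measured, and limma passed 2 of 28 members (ATP7A higher, TRPM1 lower), where 25.4% of 8272 bright genes passed. With an intensity trend, added after seeing the data, limma passed 7, where 21.0% of measured genes passed.

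The median difference as the mean over probe sets was 0.0936 for siPIR against siCTR, -0.0491 for siPIR against NO and -0.16 for siCTR against NO. The median difference of measured members, siPIR against NO, was 0.0928 without _x_at and _s_at probe sets and 0.0606 after quantile normalization, and the cause was not tested. With each array left out, medians ranged from 0.0334 to 0.129 for siPIR against siCTR, from 0.0889 to 0.158 for siPIR against NO and from -0.0120 to 0.0733 for siCTR against NO. No paired analysis was possible because each group is 1 RNA pool and the replica numbers count repeat arrays of it.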
